A study of Equus caballus with 45 samples.

Results

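The comparison described here is between equine bone marrow mesenchymal stromal cells (MSC) labelled CPG, written CpG below, and untreated MSC of the same donor horses. It was taken by column name, with the CpG and the untreated library of each donor, PC, 99 and 92, forming a pair, and holds 6 of the 45 libraries of the series. MSC are plastic-adherent cells grown from bone marrow that are given to joints for their effect on inflammation. Bulk RNA sequencing counted reads per protein coding gene. The CpG group is known only by the label CPG on MSC of the cell lines PC, 99 and 92, and no reagent, dose or time is given for it in the sources used here. The untreated group is MSC of the same 3 donors with no treatment in its label. For the side-by-side comparisons, the TLR3 agonist group (polyinosinic:polycytidylic acid, or poly I:C) and the STING agonist group (2′3′-cGAMP) are MSC of the same donors exposed for 2 h, washed and cultured for a further 24 h. The donors were healthy horses, and each library is 1 culture of 1 horse, so donor and cell line cannot be told apart.

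DNA with unmethylated CpG dinucleotides is the known ligand of TLR9, a receptor of the endosome that UNC93B1 brings there from the endoplasmic reticulum. Bound TLR9 signals through MYD88, the IRAK kinases and TRAF6 to NF-kB, which drives cytokine and chemokine genes, and in plasmacytoid dendritic cells to IRF7 and type I interferon. TLR3 and STING, which sense double-stranded RNA and cyclic dinucleotides, lead to interferon-stimulated genes (ISGs) by other adaptors.

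Total counts in the 6 libraries ran from 30596093 to 48320694, and the 10 most abundant genes held 9.52% to 14.7% of a library. A count of 3, taken as the floor, was 0.0627 to 0.0963 CPM (counts scaled to a library size corrected by TMM), and floors cover counting error only. The MSC markers CD44, THY1, NT5E, ENG, ITGB1 and PDGFRB were present in all 6 libraries. PTPRC, the pan-leukocyte CD45, had at most 2 counts, and CD79A, CD163, AIF1 and EPCAM had 0. CD68 and PECAM1, which mark macrophages and endothelium, were nevertheless measured at 8.28 to 20.4 and 36.2 to 53.2 CPM, while CDH5 and VWF reached at most 0.413 and 0.835 CPM. Libraries that stood apart were both from donor 92. The TLR3 agonist library of donor 92 held a summed ISG level of 1283 CPM against 24390 and 17810 CPM in the other TLR3 agonist libraries and 1308 to 1637 CPM in untreated MSC. The CpG library of donor 92 held 1304 CPM of DNA replication genes against 3128 CPM in its untreated pair.

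No gene passed the adjusted threshold between CpG and untreated MSC. Among 15099 genes tested with edgeR's quasi-likelihood test, with donor as a block, 0 had a Benjamini-Hochberg adjusted p under 0.05, and the adjusted value was 1 for each of them. At an unadjusted p under 0.05 there were 216 genes, or 1.43%, of which 82 (0.543%) were higher and 134 (0.887%) lower in CpG, where this threshold passes 5% of genes if none differ. DESeq2 with the same block gave 0 adjusted calls and 234 genes at the unadjusted threshold. A fit of only the 6 libraries gave 0 and 291 with edgeR. With DESeq2 on those 6 libraries, an alternative chosen after seeing the data, 2 genes had an adjusted p under 0.05, IL11 and MMP1, both lower in CpG. The median log2 fold change over all genes was -0.0078. Libraries of the same donor deviated together, and the values below are therefore given by donor. Genes described below as at the unadjusted threshold had p under 0.05 in the fit of 12 libraries, all of them miss the adjusted threshold, and each log2 fold change is given with its standard error (SE) and, where written out, its 95% interval.

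**Figure D1:**
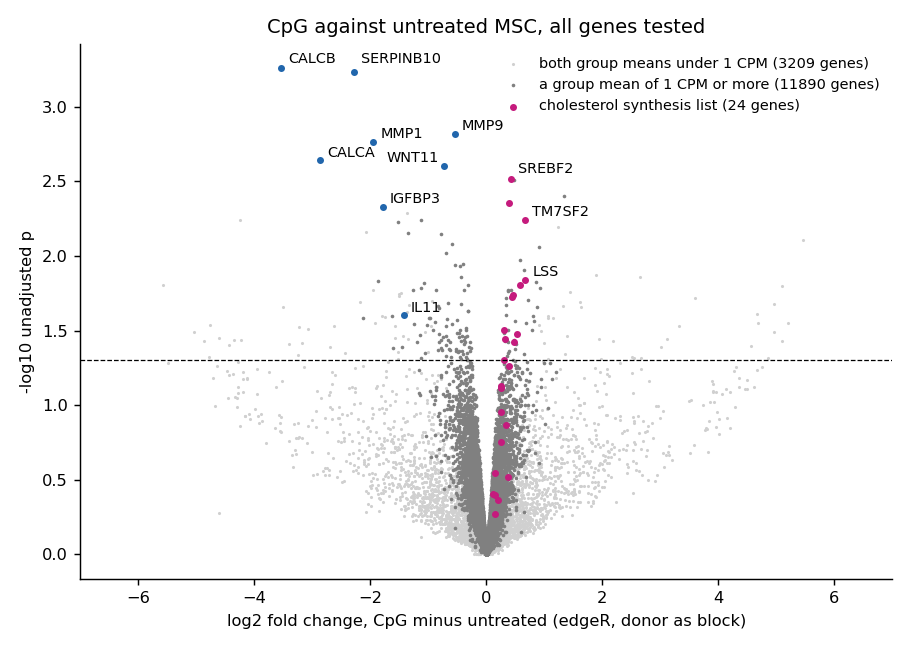
Each point is 1 of the 15099 genes tested, with the log2 fold change of CpG minus untreated on the x axis and the unadjusted p, as -log10, on the y axis, where the dashed line marks 0.05. The 24 cholesterol synthesis genes, in pink, all lie right of 0, and the named genes in blue lie left of it, while no gene passed an adjusted p of 0.05.

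Genes of cholesterol synthesis and its control were the list with most members at the unadjusted threshold on the higher side. All 24 measured members were fitted higher in CpG, where 48% of all genes were, 12 of them at p under 0.05 against 0.543% of all genes, and 0 were lower at that threshold. The median log2 fold change was 0.33. The same list had 0 members with an adjusted p under 0.05. The mevalonate pathway builds cholesterol from acetyl-CoA, and its genes are switched on together by SREBP2, the product of SREBF2, when sterols in the endoplasmic reticulum are low.

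SREBF2 itself stood at 128, 183 and 228 CPM in untreated MSC of donors PC, 99 and 92 and at 189, 228 and 302 CPM with CpG (log2 fold change 0.43, SE 0.11, 95% interval 0.18 to 0.67). It was higher with CpG in 3 of 3 donors, while the ranges of the groups overlapped. TM7SF2, a sterol reductase, was at 2.76, 14.4 and 6.88 CPM untreated and 5.23, 21.3 and 10.2 CPM with CpG (log2 fold change 0.67, SE 0.20, 95% interval 0.24 to 1.10). For LSS, the lanosterol synthase that closes the sterol rings, untreated libraries held 18.1, 47.9 and 57.7 CPM and CpG libraries 41.5, 70.6 and 73.5 CPM (log2 fold change 0.67, SE 0.23, 95% interval 0.16 to 1.18). Both TM7SF2 and LSS were a fitted 1.59-fold higher, and in each of these 3 genes the largest log2 ratio was in donor PC.

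Other members at this threshold cover early and late steps. HMGCS1, a synthase at the start of the mevalonate pathway, had a log2 fold change of 0.59 (SE 0.21). IDI1 and MVK, of the isoprenoid steps, were at 0.48 (SE 0.20) and 0.31 (SE 0.12). SQLE, the squalene epoxidase, and CYP51A1, the lanosterol demethylase, were at 0.46 (SE 0.16) and 0.44 (SE 0.16). SC5D, a desaturase of the last steps, went from 38.1, 77.4 and 101 CPM to 61.5, 86.8 and 112 CPM in the same order of donors (log2 fold change 0.32, SE 0.14, 95% interval 0.025 to 0.62). Of the 12 members that missed this threshold, INSIG1, which retains SREBP in the endoplasmic reticulum, was at 0.26 (SE 0.15), FDPS at 0.34, STARD4 at 0.37, ACAT2 at 0.15 and EBP at 0.15. FASN, the fatty acid synthase and a member of the adipocyte list, went from 130.3, 237 and 228 CPM to 169, 356 and 252 CPM (log2 fold change 0.38, SE 0.13, 95% interval 0.082 to 0.68), higher in 3 of 3 donors.

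Donors did not share the cholesterol pattern equally. The median log2 ratio over the 24 genes was 0.68 in donor PC and 0.42 in donor 99, but 0.0039 in donor 92, and 12 of the 24 genes, against 9.44% of all genes, were higher in 3 of 3 donors. The untreated libraries of donor PC, with 1284 CPM summed over the list, and of donor 99, with 2381 CPM, held less than that of donor 92, with 3485 CPM. The CpG libraries held 1923, 3007 and 3757 CPM for PC, 99 and 92. Without both libraries of donor PC, 1 of 24 genes had p under 0.05 (median 0.21), without those of donor 99 it was 9 (median 0.37), and without those of donor 92 it was 19 (median 0.51). Without the untreated library of donor PC alone the count was 3, without the CpG library of donor PC or of donor 99 it was 5, and without the untreated library of donor 92 it was 18. A fit without the donor block gave 0 of 24, with a median of 0.28. RNA came from whole cultures, so a difference in the share of cells and in RNA per cell cannot be told apart.

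In donors PC and 99, the agonist libraries also lay above untreated for this list, and the direct contrasts with CpG were smaller. Against the TLR3 agonist, CpG MSC had a median log2 difference of 0.09 with 0 of 24 genes higher at p under 0.05, where 1.7% of all genes were. For the contrast with the STING agonist it was 0.18, and 4 of 24 were higher at that threshold against 6.58% of all genes. The level in each donor, which these contrasts rest on, is shown by the plot of summed levels.

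**Figure D2:**
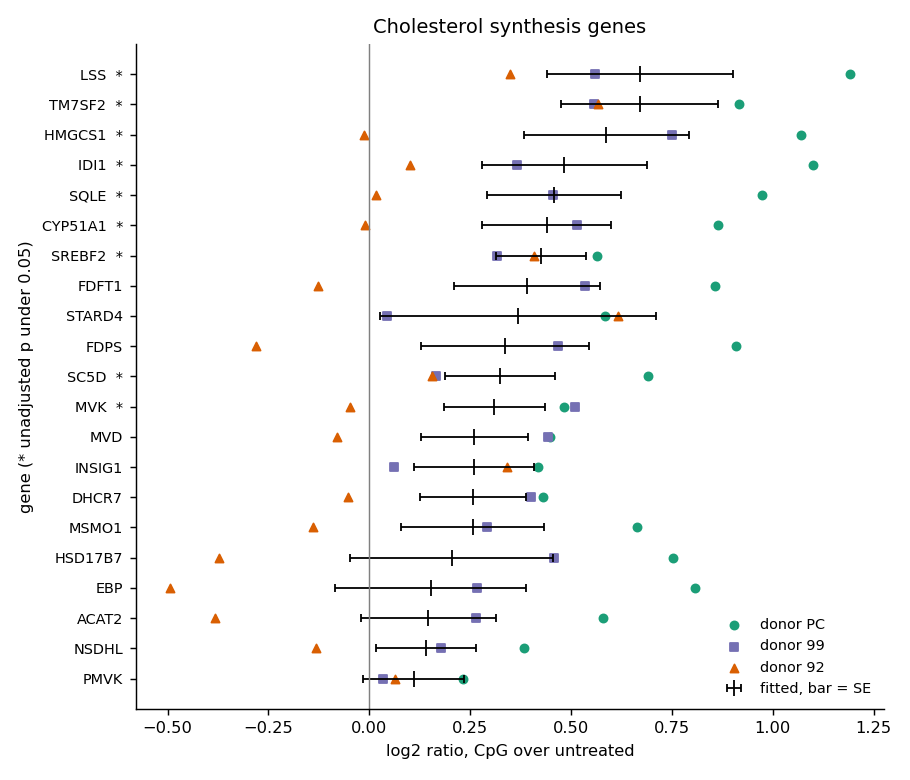
The log2 ratio of CpG over untreated is given for 21 of the 24 cholesterol synthesis genes in each donor, with the fitted value and its SE in black, and stars mark an unadjusted p under 0.05. Donor PC lies mostly at the right and donor 92 mostly left of the other donors, with list medians of 0.68 in PC, 0.42 in 99 and 0.0039 in 92.

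Named genes on the lower side included matrix proteinases, interleukin 11 and WNT ligands. MMP9, the gelatinase that cuts denatured and type IV collagen, stood at 180.5, 167 and 96.9 CPM in untreated MSC of PC, 99 and 92 and at 148, 116 and 54.4 CPM with CpG (log2 fold change -0.55, SE 0.13, 95% interval -0.83 to -0.26). This was a fitted 1.46-fold lower level, in the same direction in 3 of 3 donors, as 9.42% of all genes were lower, and it was -0.40 on the log2 scale without both libraries of donor 92. The groups overlapped, as they did for all genes but 1.19% on the lower side. WNT11, a ligand of noncanonical WNT signalling, went from 9.15, 20.0 and 6.46 CPM to 5.87, 9.39 and 4.66 CPM (log2 fold change -0.73, SE 0.19, 95% interval -1.14 to -0.32), a fitted 1.66-fold lower level. WNT7B, another WNT ligand, was at 1.57, 1.15 and 4.58 CPM untreated and 0.991, 0.561 and 1.55 CPM with CpG (log2 fold change -1.13, SE 0.33, 95% interval -1.86 to -0.40). Both WNT ligands were lower with CpG in each donor, while the ranges of the groups overlapped.

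IL11, a cytokine of the interleukin 6 family made by stromal cells, held 19.2, 6.81 and 121 CPM in untreated libraries of PC, 99 and 92 and 8.43, 4.34 and 27.6 CPM with CpG (log2 fold change -1.43, SE 0.55, 95% interval -2.64 to -0.22). Its largest difference was in donor 92, and leaving out both libraries of donor 92 gave -0.98. MMP1, the interstitial collagenase, was found at a level above 1 CPM in donor 92 only, where it went from 148 to 33.2 CPM, and it was at 0.0321 and 0.252 CPM in the untreated libraries of PC and 99 (log2 fold change -1.95, SE 0.47, 95% interval -2.98 to -0.91). MMP12, the macrophage elastase, had the same distribution, from 36.4 to 6.83 CPM in donor 92 and under 1 CPM elsewhere (log2 fold change -1.86, SE 0.60, 95% interval -3.24 to -0.48). IGFBP3, which binds insulin-like growth factors, went from 212 to 44.1 CPM in donor 92 and was under 1 CPM in the other donors (log2 fold change -1.79, SE 0.50, 95% interval -2.90 to -0.68). MMP1, MMP12 and IGFBP3 thus rest on 1 donor for their level, and IGFBP3 was at -0.34 without donor 92. In donor PC, MMP1 had 1 count and IGFBP3 had 11 counts in the untreated and in the CpG library alike. Their lower CPM in that donor therefore comes from library size only.

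Of 32 matrix proteinases and inhibitors tested, 3 were lower at p under 0.05 against 0.887% of all genes, the 3 MMPs above, and 0 were higher. The list's median was -0.10, with MMP15 the member of smallest p on the higher side at 0.29 (SE 0.17). COL8A1, a short-chain collagen, was at 279, 44.6 and 7.36 CPM untreated and 193, 37.3 and 5.67 CPM with CpG (log2 fold change -0.38, SE 0.14, 95% interval -0.68 to -0.083), the only one of 28 collagens at that threshold, and COL6A3 was at 0.29 (SE 0.14). The median over collagens was 0.12 in the fit, while the donor medians were -0.08 in PC, -0.05 in 99 and 0.45 in 92.

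**Figure D3:**
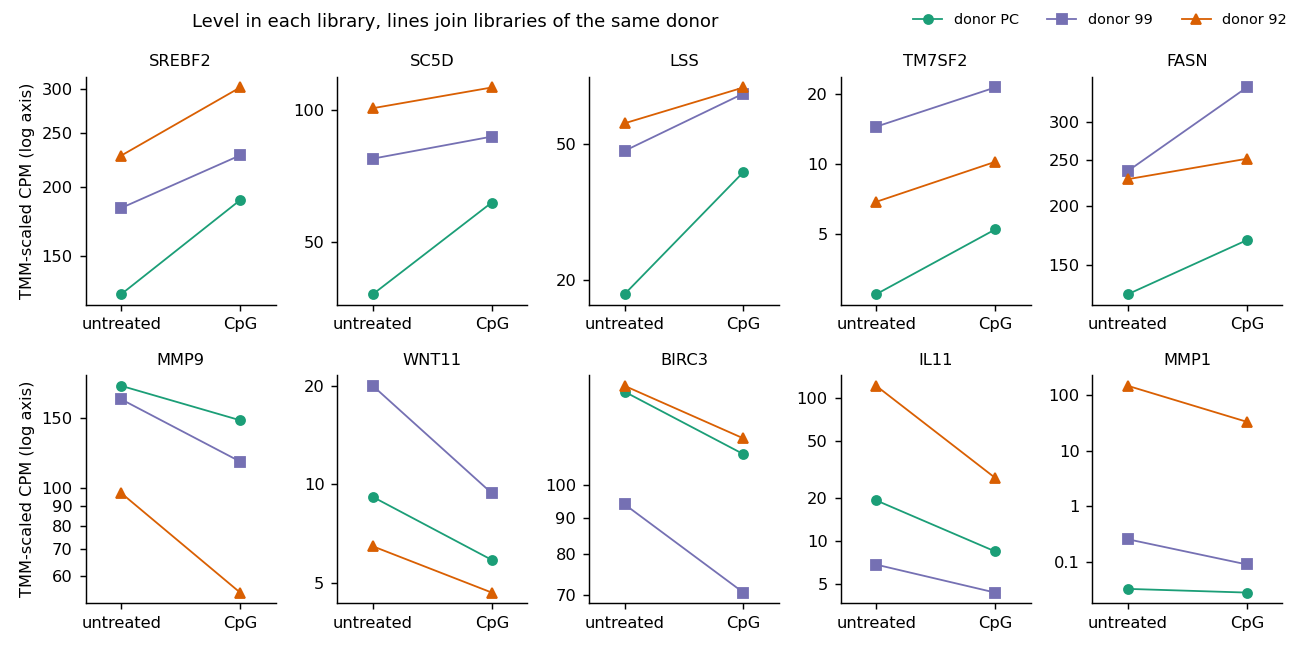
Levels in TMM-scaled CPM on log axes are given for 10 genes, with a line from the untreated to the CpG library of each donor. The upper row (SREBF2, SC5D, LSS, TM7SF2, FASN) is higher with CpG in 3 of 3 donors. In the lower row, MMP9, WNT11, BIRC3 and IL11 are lower in 3 of 3. MMP1, also in that row, is above 1 CPM in donor 92 only, and both its PC libraries held 1 count. The distance between donors exceeds the step within a donor in most panels.

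The remaining genes named by rank lie at low levels. On the lower side, NANOS1, an RNA-binding translational repressor, had a log2 fold change of -1.35 (SE 0.41), SCTR, the secretin receptor, -0.77 (SE 0.23), and ATG9B, an autophagy scramblase, -0.59 (SE 0.18). On the higher side, KIF1A, a kinesin motor, was at 0.91 (SE 0.28), GAS2L2, a cytoskeletal linker, at 0.86 (SE 0.30), SCRN1 at 0.81 (SE 0.32), SH2D3C, a signalling adaptor, at 0.71 (SE 0.26), and ABHD6, a monoacylglycerol lipase, at 0.57 (SE 0.19). MYORG, a glycosidase, stood at 1.48, 1.60 and 1.53 CPM untreated and 2.48, 2.72 and 2.24 CPM with CpG (log2 fold change 0.69, SE 0.27, 95% interval 0.089 to 1.29). It alone among the genes named by rank had every CpG library above every untreated one, as 1.16% of all genes had.

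The study's own criteria were an unadjusted p up to 0.05 and a fold difference of 2 or more, either way, on the log2 scale, and 44 genes (0.291%) met both, 19 (0.126%) higher and 25 (0.166%) lower. Of these, 40 had a mean under 1 CPM in both groups. The other 4 were all fitted lower, and each had its reads almost wholly in donor 92. CALCA, the gene of calcitonin and calcitonin gene-related peptide, had 0, 1 and 931 counts in untreated MSC of PC, 99 and 92 and 0, 0 and 94 with CpG (log2 fold change -2.87, SE 0.72, 95% interval -4.47 to -1.27). Its paralog CALCB, whose reads could be exchanged with those of CALCA, had 18, 0 and 787 counts untreated and 7, 0 and 28 with CpG (log2 fold change -3.55, SE 0.73, 95% interval -5.16 to -1.93). CAMK1G, a calmodulin-dependent kinase, had 0, 0 and 187 counts untreated and 0, 0 and 35 with CpG (log2 fold change -2.13, SE 0.67, 95% interval -3.88 to -0.39). SERPINB10, a serine proteinase inhibitor, had 0, 0 and 10326 counts untreated and 0, 2 and 1585 with CpG (log2 fold change -2.29, SE 0.48, 95% interval -3.34 to -1.24), and its fitted sign turned to 0.36 under DESeq2 and to 3.22 without donor 92, where the CpG library of donor 99 gave its 2 counts. All 4 therefore rest almost wholly on 1 horse.

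Of 33 components of TLR9 signalling, 0 had p under 0.05 in either direction, where 1.43% of all genes had, a count near that background, and the median was 0.0072. TLR9 itself was near the floor, with 9, 7 and 3 counts in untreated libraries of PC, 99 and 92 and 6, 12 and 13 in CpG libraries (log2 fold change 0.85, SE 0.73, 95% interval -0.77 to 2.46), and at these counts the interval holds both a lower and a higher level. The machinery behind it was present. UNC93B1, its chaperone, stood at 114, 110.0 and 110.2 CPM untreated and 112, 98.5 and 146 CPM with CpG (log2 fold change 0.10, SE 0.23, 95% interval -0.40 to 0.60). MYD88, the adaptor, was at 19.2, 17.0 and 26.3 CPM and 18.9, 17.6 and 24.1 CPM (log2 fold change -0.036, SE 0.21, 95% interval -0.51 to 0.44), and TRAF6, the ubiquitin ligase after the IRAK kinases, had a log2 fold change of 0.030 (SE 0.12). For UNC93B1, MYD88 and TRAF6, the log2 fold change was smaller in size than its SE, which takes in spread among the agonist libraries. IKBKB, an NF-kB activating kinase, and HMGB1, a nuclear protein that carries DNA, had the smallest p in each direction, at 0.20 (SE 0.13) and -0.24 (SE 0.19). Of 17 other nucleic acid sensors, 0 passed in either direction, with EIF2AK2 at 0.45 (SE 0.48) and TICAM1 at -0.17 (SE 0.14). EIF2AK2 had every CpG library above every untreated one, as 1.16% of all genes had. The fit of only the 6 libraries takes no spread from the agonist libraries. There, the median SE of these sensors was 0.14 against 0.32, and 1 of 17 was lower at p under 0.05, against 1.22% of all genes.

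NF-kB targets and cytokines, the known output of that pathway, had 0 members at p under 0.05 on the higher side, which is near the 0.543% of all genes there. Of 27 NF-kB targets and feedback genes, 2 were lower at p under 0.05, against 0.887% of all genes, BIRC3 and CCL2, with a list median of -0.065. BIRC3, an inhibitor of apoptosis, went from 136, 94.0 and 138 CPM to 111, 70.5 and 117 CPM (log2 fold change -0.32, SE 0.11, 95% interval -0.56 to -0.073). CCL2, the monocyte chemoattractant, was at 399, 397 and 46.2 CPM untreated and 368, 285 and 38.8 CPM with CpG (log2 fold change -0.28, SE 0.12, 95% interval -0.54 to -0.0097). Both were lower in 3 of 3 donors, by a fitted 1.25-fold for BIRC3 and 1.21-fold for CCL2. NFKBIA, the NF-kB inhibitor that NF-kB itself induces, had a log2 fold change of -0.10 (SE 0.13) with an interval of -0.39 to 0.18. TNFAIP3, the feedback deubiquitinase A20, was at -0.0084 (SE 0.19), and RELB at 0.20 (SE 0.17). The count of 2 became 0 without either library of donor 99 and 1 without either library of donor 92 or the untreated library of donor PC.

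Of 21 cytokines tested, 3 were lower at p under 0.05, against 0.887% of all genes, and 0 higher, against 0.543%. Beside IL11 these were IL7, a lymphocyte growth factor, at -1.03 (SE 0.41), and IL12A, the p35 chain of interleukin 12, at -1.15 (SE 0.47), each under 3 CPM in the 6 libraries. IL6 was near the floor, at 0.417, 0.280 and 0.167 CPM untreated and 0.661, 0.709 and 0.0739 CPM with CpG (log2 fold change 0.44, SE 0.60, 95% interval -0.87 to 1.76), and CXCL8 had a log2 fold change of -0.085 (SE 0.74) at under 1 CPM. LIF was at -0.42 (SE 0.38), CSF3 at -0.35 (SE 0.40) and IL23A at 0.33 (SE 0.28). The cytokine median was -0.050, and the count of 3 became 0 without either library of donor 92 and 1 without either library of donor PC.

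Of 20 chemokines and chemokine receptors tested, 4 were lower at p under 0.05, against 0.887% of all genes, 0 were higher, against 0.543%, and the median was -0.33. CXCL12, the stem cell homing factor of marrow stroma, went from 5.59, 16.7 and 1.34 CPM to 4.27, 13.3 and 0.419 CPM (log2 fold change -0.70, SE 0.29, 95% interval -1.34 to -0.061). CCL11, an eotaxin, was at 13.3, 11.3 and 4.03 CPM untreated and 9.67, 7.50 and 2.81 CPM with CpG (log2 fold change -0.53, SE 0.23, 95% interval -1.03 to -0.019). CCL26, another eotaxin, went from 38.3, 17.7 and 316 CPM to 33.2, 11.2 and 43.4 CPM (log2 fold change -1.45, SE 0.62, 95% interval -2.83 to -0.073). The CCL26 difference was large in donor 92 only, and it was at -0.38 without that donor. All 4 were lower in 3 of 3 donors, as were 7 of the 20 and 9.42% of all genes. The fourth is CCL2, given above, and ACKR3, a decoy receptor of CXCL12, was at 0.14 (SE 0.16). The count of 4 chemokines became 0 without the untreated library of donor 92, 1 without the CpG library of donor 92 or of donor 99, 2 without the untreated library of donor PC, and 0 without the donor block.

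Interferon-stimulated genes were low in both CpG and untreated MSC. Summed over 62 genes, untreated libraries of PC, 99 and 92 held 1308, 1637 and 1331 CPM and CpG libraries 1465, 1721 and 1365 CPM. Of the 62, 0 had p under 0.05 in either direction, near the 1.43% of all genes, and the median log2 fold change was 0.090. By sign, 43 of 62 were fitted higher with CpG, where 48% of all genes were, and 14 were higher and 2 lower in 3 of 3 donors, where 9.44% and 9.42% of all genes were. The donor medians were 0.16 in PC, 0.096 in 99 and 0.044 in 92. In the fit of the 6 libraries, which takes no spread from the agonist libraries, 60 ISGs were tested. Of these, 2 were higher at p under 0.05, against 0.787% of all genes in that fit, and 1 was lower, against 1.22%. There, the 52 ISGs with a mean of 1 CPM or more had log2 fold changes from -0.47 to 0.62, and for 49 of them the 95% interval ended under 1.

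MX1, an antiviral GTPase, stood at 1.41, 6.0 and 6.85 CPM in untreated MSC of PC, 99 and 92 and at 1.62, 7.71 and 4.26 CPM with CpG, with an interval of -0.65 to 0.51 for the log2 fold change in the 6 libraries. ISG15, a ubiquitin-like modifier, was at 7.96, 7.68 and 14.4 CPM and 9.25, 9.19 and 8.82 CPM, with an interval of -0.59 to 0.41. IFIT2 and IFIT3, which bind viral RNA, had intervals of -0.39 to 0.71 and -0.028 to 1.20. These intervals hold 0 and leave room for at most a 2.29-fold higher level among these 4 genes, for IFIT3. IRF7, the interferon regulatory factor, was at 11.5, 17.8 and 5.29 CPM untreated and 16.4, 19.0 and 5.52 CPM with CpG (interval -0.13 to 0.58). CXCL10 and CCL5, interferon-induced chemokines, were under 1 CPM in each of the 6 libraries, with intervals of -1.54 to 0.75 and -1.59 to 0.89. IRF1 at 0.35 (SE 0.16) and PLSCR1 at -0.16 (SE 0.15) had the smallest p in each direction in the fit of 12 libraries.

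Set against the agonist libraries of the same donors, which share that fit, CpG MSC were lower in nearly every ISG. STING agonist libraries held a summed 22500.0, 28830.0 and 13710.0 CPM, and CpG was lower than these in 60 of 62 ISGs at p under 0.05, where 7.05% of all genes were. The median log2 difference was -3.40. Of the 62, 16 had an adjusted p under 0.05, among them IRF7 at -6.52 (edgeR adjusted p = 0.0498) and CXCL10 at -7.35 (edgeR adjusted p = 0.0498). Over all genes, 60 (0.397%) had an adjusted p under 0.05 between CpG and STING agonist, 11 (0.0729%) higher and 49 (0.325%) lower in CpG. CCL5 and CCL2 were also among the lower genes, at -6.66 (edgeR adjusted p = 0.0233) and -0.98 (edgeR adjusted p = 0.0233). The count of 60 was not stable, with 0 without the donor block, 7 with another normalization, 666 with DESeq2, 0 or 1 without any 1 of the CpG libraries, 2 without the untreated library of donor PC, 8 without the untreated or the TLR3 agonist library of donor 99, 0, 9 and 10 without the STING agonist library of donors 99, PC and 92, and 225 to 255 without the untreated library of donor 92 or the TLR3 agonist library of donor PC or 92. The count of 16 ISGs ran from 0 to 57 over the same alternatives, with 57 to 60 ISGs lower at the unadjusted threshold.

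Against the TLR3 agonist, 57 of 62 ISGs were lower in CpG at p under 0.05, where 2.85% of all genes were, and the median log2 difference was -2.77. No gene had an adjusted p under 0.05 in that contrast with edgeR, 687 (4.55%) had p under 0.05, and DESeq2 gave 62 adjusted calls. Without the TLR3 agonist library of donor 92, whose ISGs were at the untreated level, 130 genes had an adjusted p under 0.05, all lower in CpG, an alternative added after seeing the data. Whether the label of that library is right was not tested, and each value against the TLR3 agonist that includes it rests on that label. MX1 stood at 633, 519 and 3.64 CPM in TLR3 agonist libraries of PC, 99 and 92 and at 532, 935 and 661 CPM in STING agonist libraries. The CpG value of MX1 in donors PC and 99 was below both agonist values of the same donor, whereas in donor 92 it was above the TLR3 agonist value.

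**Figure D4:**
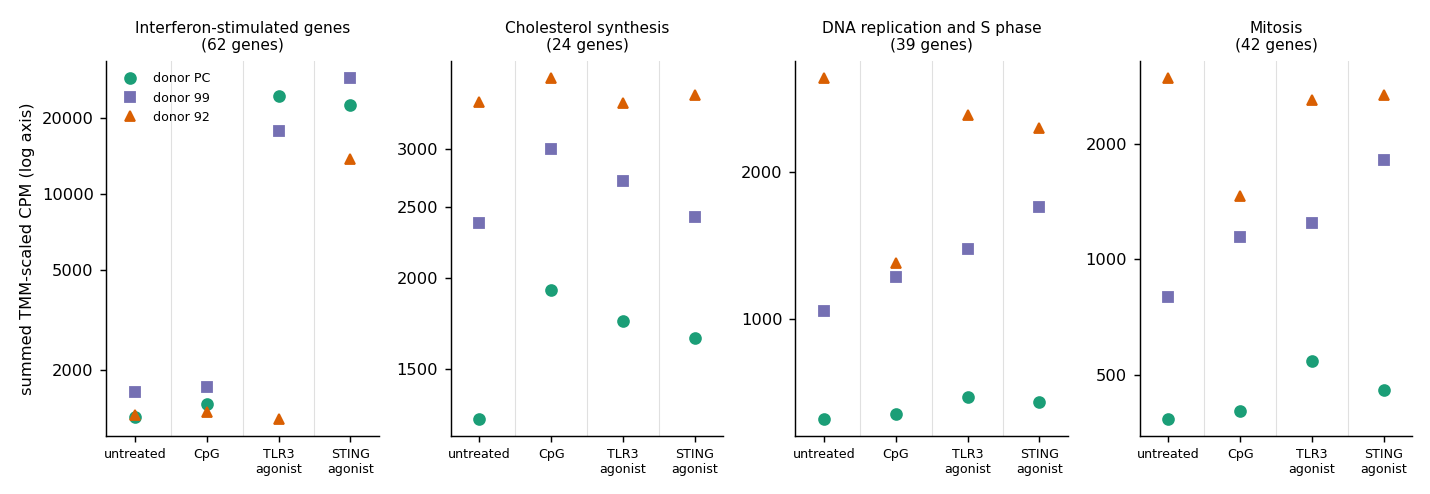
Summed TMM-scaled CPM, on log axes, is given for each of the 12 MSC libraries in 4 gene lists, with 1 symbol per donor. ISG sums of CpG libraries lie with the untreated ones and with the TLR3 agonist library of donor 92, cholesterol sums within donors PC and 99 are lowest in untreated MSC, and in donor 92 the DNA replication and mitosis sums are lowest with CpG.

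Cell cycle genes differed between donors in direction. All 39 DNA replication genes were fitted lower with CpG, where 52% of all genes were, with a median of -0.33, yet the donor medians were 0.0061 in PC, 0.20 in 99 and -1.18 in 92. Summed levels were 624, 1040.0 and 3128 CPM in untreated MSC of PC, 99 and 92 and 636, 1221 and 1304 CPM with CpG. At p under 0.05 there were 2 members, where 0.887% of all genes were lower. These were RFC5, a clamp loader subunit, at -0.50 (SE 0.20), and ORC1, of the origin recognition complex, at -0.78 (SE 0.33). The count of 2 became 0 without either library of donor 92. It was 15 without the untreated library of donor 99, where 1.93% of all genes were lower at that threshold. Without the CpG libraries of PC and 99 it was 7 and 4, where 1.23% and 1.25% of all genes were lower. For 42 mitosis genes the fitted median was -0.18, with 0.08 in PC, 0.61 in 99 and -1.06 in 92. Without both libraries of donor 92 the medians turned to 0.13 for DNA replication and 0.35 for mitosis, and without those of donor 99 they were -0.61 and -0.53. In the fit without donor 99, 22 of 39 DNA replication genes were lower at p under 0.05, against 2.19% of all genes. BUB1B, a spindle checkpoint kinase, was at -0.52 (SE 0.28) and PRC1, of the midzone, at 0.052 (SE 0.24). The difference in cell cycle genes in donor 92 moves with the lower levels of IL11, MMP1, MMP12, IGFBP3, CCL26, CALCA, CALCB, CAMK1G and SERPINB10 in that donor, and its part in them was not tested.

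The other lists had from 0 to 2 members at p under 0.05, where 0.543% of all genes were higher and 0.887% lower. Among 22 p53 targets, 1 was higher at p under 0.05, GADD45A, a growth arrest and DNA damage gene, which went from 197, 174 and 56.0 CPM to 248, 193 and 81.2 CPM (log2 fold change 0.34, SE 0.12, 95% interval 0.067 to 0.61), and BTG2 was at -0.37 (SE 0.27). Of 13 osteoblast genes, 1 was lower, BMP2, a bone morphogenetic protein, at -0.70 (SE 0.31), and COL1A1 was at 0.19 (SE 0.20). Of 14 MSC surface markers, 2 were lower, CXCL12 and NES, the filament protein nestin, at -0.39 (SE 0.17), and CD44 was at 0.081 (SE 0.12). Among 29 immunomodulatory factors, 1 was lower, CCL2, with VEGFA at 0.12 (SE 0.17) and a median of 0.036. Of 15 adipocyte genes, 1 was higher, FASN, with PPARG at -0.53 (SE 0.39).

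The other lists had 0 members at p under 0.05 in either direction, and their leading members are given with their log2 fold changes. Among 13 chondrocyte genes (median -0.37) COL11A1 was at 0.11 (SE 0.22) and COMP at -0.37 (SE 0.22). Among 19 smooth muscle contractile genes (median 0.064) FLNA was at 0.23 (SE 0.13) and ACTG2 at -0.21 (SE 0.14). The 25 immediate early genes had a median of -0.11, with KLF4 at 0.30 (SE 0.15) and JUN at -0.30 (SE 0.15). Each of these lists had members fitted in both directions. The 29 genes of the amino acid response and ER stress had a median of 0.052, with ATF5 at 0.48 (SE 0.23) and MANF at -0.30 (SE 0.21). For 30 glycolysis and hypoxia genes the median was 0.084, with ALDOC at 0.25 (SE 0.13) and LDHA at -0.061 (SE 0.17). Of these, 28 of 30 were fitted higher, where 48% of all genes were, and the donor medians were 0.30 in PC, 0.051 in 99 and -0.039 in 92. The 68 cytosolic ribosomal protein genes, many with processed copies elsewhere in a genome, had a median of -0.073, with RPS4X at 0.45 (SE 0.33) and RPL36 at -0.30 (SE 0.22). Of these, 62 of 68 were fitted lower, where 52% of all genes were. Donor PC was higher here, with a median of 0.24, and donors 99 and 92 lower, at -0.24 each. The 15 haematopoietic and macrophage markers tested (median -0.22, ITGAX at 0.060) and the 7 endothelial and epithelial markers (median -0.010, PECAM1 at -0.11) were mostly near the floor.

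**Figure D5:**
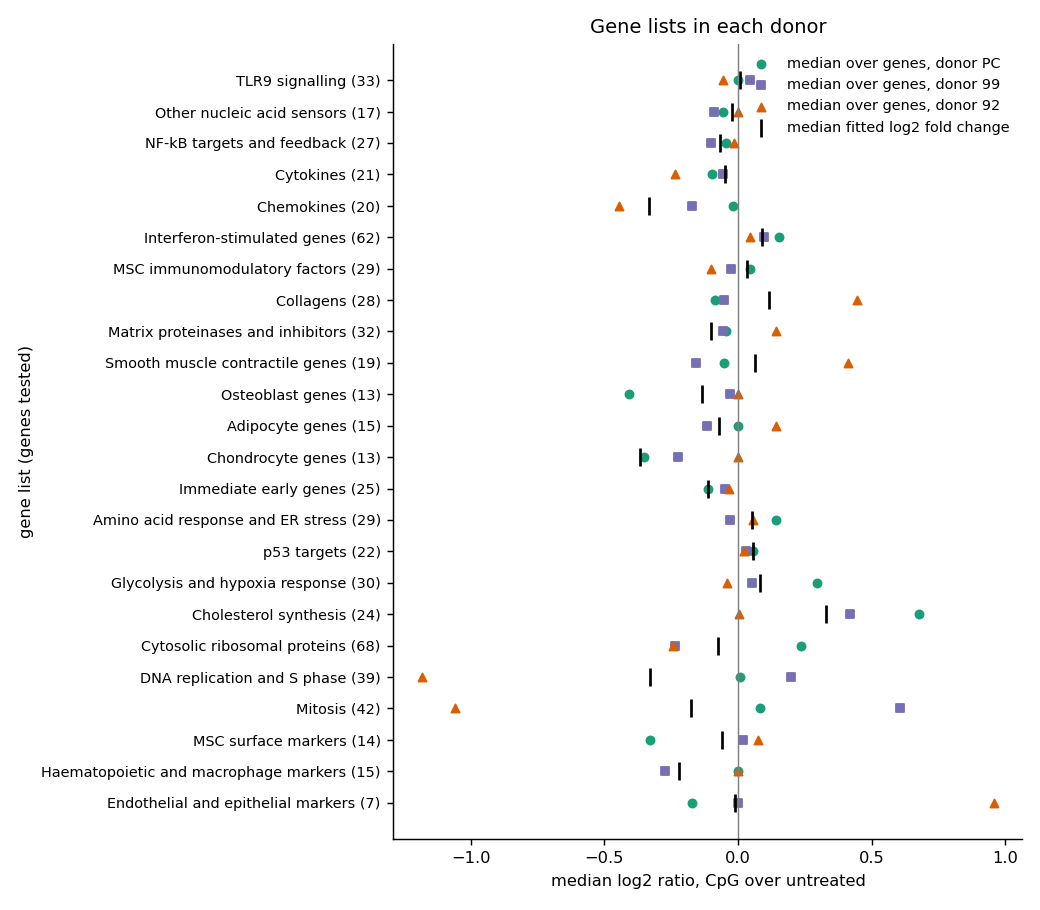
The median log2 ratio of CpG over untreated is given for 24 gene lists in each donor, beside the median fitted log2 fold change as a bar, with the number of genes tested in brackets. Donor 92 lies far left of the other donors for DNA replication (-1.18) and mitosis (-1.06), and donor PC lies right of the other donors for cholesterol synthesis (0.68).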

How the data were processed

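RNA of 12 equine MSC libraries (untreated, CpG, TLR3 agonist and STING agonist, donors PC, 99 and 92) was sequenced. The authors trimmed reads with Cutadapt 1.12, aligned them with STAR to EquCab3.0 and counted them per gene with HTSeq 0.11.0. The deposited values are raw counts per protein coding gene, without normalization, for 20881 genes, 3970 of them named by Ensembl identifier only. The CpG reagent is not given in the sources used here. The joint cell libraries were not used here.

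Counts were fitted with edgeR 4.0.16 (TMM, quasi-likelihood test, R 4.3.3) over the 12 libraries, keeping genes whose counts summed to 10 or more. Donor was a block. The labels PC, 99 and 92 recur in each condition, and each was taken to be the same horse throughout, which the labels themselves do not state. After the mean of each condition was subtracted, CpG and untreated libraries of the same donor correlated at 0.70 (PC), 0.69 (99) and 0.79 (92). The median between donors, -0.50, follows from subtracting a mean over 3 donors and is no measure of their difference. The p-values were adjusted by Benjamini-Hochberg across the 15099 genes kept, with 3 donors per group. Ratios per donor used a prior count of 1. Levels are TMM-scaled CPM. Reads from paralogs could be exchanged. The scripts were tested on simulated data.

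Genes were named by a fixed rule: with a symbol and a mean of at least 1 CPM in a group, up to 15 per direction with an adjusted p under 0.05 in 3 of 3 donors, and, as under 8 passed, up to 8 per direction of smallest unadjusted p under 0.05 with an absolute log2 difference from 0.5 up and 3 of 3 donors alike. To these come the member of smallest p in each direction of each list and 18 genes of TLR9 and interferon signalling. Other list members and the 4 genes past the study's thresholds were named after their values were seen. A few members of the lists are counted in them but not reported singly here. The lists, the comparison and its rules were chosen with earlier results of these data known. Alternatives were DESeq2 1.42.0, no block, only 6 libraries, RLE normalization, other filters and leaving out libraries or donors.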

Additional observations from a re-analysis of the deposited data

How the results depend on the processing

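The number of genes with an adjusted p under 0.05 between CpG and untreated MSC was 0 in every alternative run, except 2 with DESeq2 on 6 libraries with the replicate block. The count past the study's thresholds was 17 in the 6 libraries with the replicate block, 12 with filterByExpr, 26 with a minimum of 1 count in total, and 6 with DESeq2 on 6 libraries, against 44. For CpG against STING agonist the count of 60 became 0 without the replicate block, 666 with DESeq2, 7 with RLE normalization, 7 with filterByExpr and 136 with 1 count in total, and ran from 0 to 255 when libraries or donors were left out. For CpG against TLR3 agonist it was 62 with DESeq2 and ran from 0 to 130. The cause of these shifts was not tested. Precision is limited by 3 donors, and genes under 1 CPM carry most large fitted fold changes.

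The sign of SERPINB10 turned under DESeq2 (0.36, and 0.25 on 6 libraries), and without the replicate block that of COL11A1 (-0.0045), EBP (-0.021), ITGAX (-0.096) and PRC1 (-0.26) turned. The median of haematopoietic and macrophage markers, which rests on genes near the floor, was 0.0093 in the 6 libraries, 0.12 with filterByExpr and -0.034 with DESeq2 on 6 libraries. Leaving out single libraries or donors moved these list medians by more than the spread between donors, as ranges: TLR9 signalling -0.085 to 0.066, Other nucleic acid sensors -0.19 to 0.050, NF-kB targets and feedback -0.12 to -0.023, Cytokines -0.24 to 0.010, Interferon-stimulated genes -0.25 to 0.42, MSC immunomodulatory factors -0.046 to 0.043, Matrix proteinases and inhibitors -0.15 to 0.013, Adipocyte genes -0.25 to 0.030, Chondrocyte genes -0.51 to -0.14, Immediate early genes -0.17 to -0.059, p53 targets 0.021 to 0.056, Haematopoietic and macrophage markers -0.47 to 0.096. That rule passes over lists on which donors differ widely. Leaving out libraries or donors turned the sign of the median in these as well: Collagens -0.084 to 0.31, Smooth muscle contractile genes -0.080 to 0.18, Glycolysis and hypoxia response -0.0076 to 0.16, Cytosolic ribosomal proteins -0.25 to 0.079, DNA replication and S phase -0.61 to 0.13, Mitosis -0.53 to 0.35, MSC surface markers -0.25 to 0.045, Endothelial and epithelial markers -0.39 to 0.43. The same turned the sign of these genes, none of which passed p of 0.05 except CAMK1G and SERPINB10: ACAT2 -0.075 to 0.43, ACKR3 -0.0026 to 0.28, CAMK1G -2.16 to 0.0018, CCL5 -0.72 to 0.27, CD44 -0.012 to 0.16, COL11A1 -0.18 to 0.39, COL1A1 -0.0032 to 0.39, CXCL8 -0.71 to 0.72, EBP -0.16 to 0.55, HMGB1 -0.43 to 0.084, IFIT2 -0.40 to 0.86, IFIT3 -0.20 to 1.34, IL6 -0.051 to 0.97, IRF7 -0.24 to 0.72, ISG15 -0.87 to 1.00, ITGAX -0.19 to 0.24, LDHA -0.24 to 0.17, LIF -0.89 to 0.0071, MX1 -0.67 to 0.75, MYD88 -0.19 to 0.11, NFKBIA -0.23 to 0.0032, PRC1 -0.25 to 0.42, RELB -0.072 to 0.34, RPL36 -0.54 to 0.014, RPS4X -0.029 to 0.81, SERPINB10 -2.43 to 3.22, TNFAIP3 -0.18 to 0.18, TRAF6 -0.086 to 0.12, UNC93B1 -0.22 to 0.25, VEGFA -0.036 to 0.26.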

Other observations

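A few genes outside the lists above, chosen after their values were seen, lay at the unadjusted threshold between CpG and untreated MSC in 3 of 3 donors, and all of them miss the adjusted one. ACSS2, which makes the acetyl-CoA that sterol and fatty acid synthesis use, went from 16.0, 40.2 and 28.0 CPM in untreated MSC of PC, 99 and 92 to 21.4, 59.3 and 33.4 CPM with CpG (log2 fold change 0.42, SE 0.15, 95% interval 0.091 to 0.74). CSPG4, the NG2 proteoglycan of pericytes and stromal cells, stood at 66.3, 76.7 and 17.1 CPM untreated and 74.9, 124 and 25.9 CPM with CpG (log2 fold change 0.48, SE 0.13, 95% interval 0.20 to 0.77). SEMA7A, a membrane-bound semaphorin, was lower, at 9.18, 10.5 and 27.8 CPM and 6.58, 8.45 and 15.8 CPM (log2 fold change -0.54, SE 0.18, 95% interval -0.93 to -0.15). The groups overlapped for each of these genes.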
